A study of Mus musculus with 6 samples.

Results

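The genes described here encode 10 enzymes that build purine and pyrimidine nucleotides from small precursors: Ppat, Gart, Paics, Atic, Impdh2 and Gmps for purines, and Cad, Dhodh, Umps and Ctps for pyrimidines. They were taken by symbol from the 56691 genes of the deposited table, where each symbol matched a single row, and all 10 were above the low-value filter. RNA came from 4T1, a mouse mammary carcinoma cell line, in 2 groups of 3 libraries: cells given vehicle, and cells given KIRA6 at 1 µmol/L, both collected after 4 h in fresh medium. KIRA6 is a kinase-binding compound that attenuates the RNase of IRE1α, which senses misfolded protein in the endoplasmic reticulum. The labels name no solvent for the vehicle and do not say whether each library had its own culture. The spread behind the p-values is that between these libraries and may be technical.

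De novo synthesis makes nucleotides when bases are not recycled by salvage. Purines are assembled on phosphoribosyl pyrophosphate (PRPP) up to inosine monophosphate (IMP), which is then turned into AMP or GMP. The pyrimidine ring is closed first and joined to PRPP afterwards to give UMP, from which CTP is made. Proliferating cells draw on both routes for RNA and DNA, and several of these genes are textbook targets of the transcription factor MYC.

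After KIRA6, the RNA of 7 of the 10 enzymes fell: Ppat, Gart and Atic on the way to IMP, Impdh2 on the way to GMP, and Dhodh, Umps and Ctps in the pyrimidine route. None was called higher by limma, by limma-voom on estimated fragments, or at an unadjusted limma p below 0.05. Paics, which sits head to head with Ppat in the genome, was 131.9 ± 32.6 FPKM (fragments scaled by gene length and library total; SD, n = 3) in vehicle and 171.3 ± 26.1 FPKM in KIRA6 and was not called. Gmps and Cad were not called either. Of all 11778 genes tested with limma, 7.98% were called lower and 15.6% were called higher at an adjusted p below 0.05. The median log2 fold change of the 10 enzymes was -0.93, beside 0.16 over all genes tested. Because the 10 enzymes were chosen with earlier results of these data known, the contrasts with all genes in this paragraph are descriptions. In 8 of the 10, every KIRA6 library lay below every vehicle library, against 14.1% of all genes tested, and no enzyme had the reverse order, against 27.7%. RNA was taken in bulk and FPKM is a share of the library, so fewer cells expressing a gene and less of its RNA in each cell cannot be told apart.

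**Figure D1:**
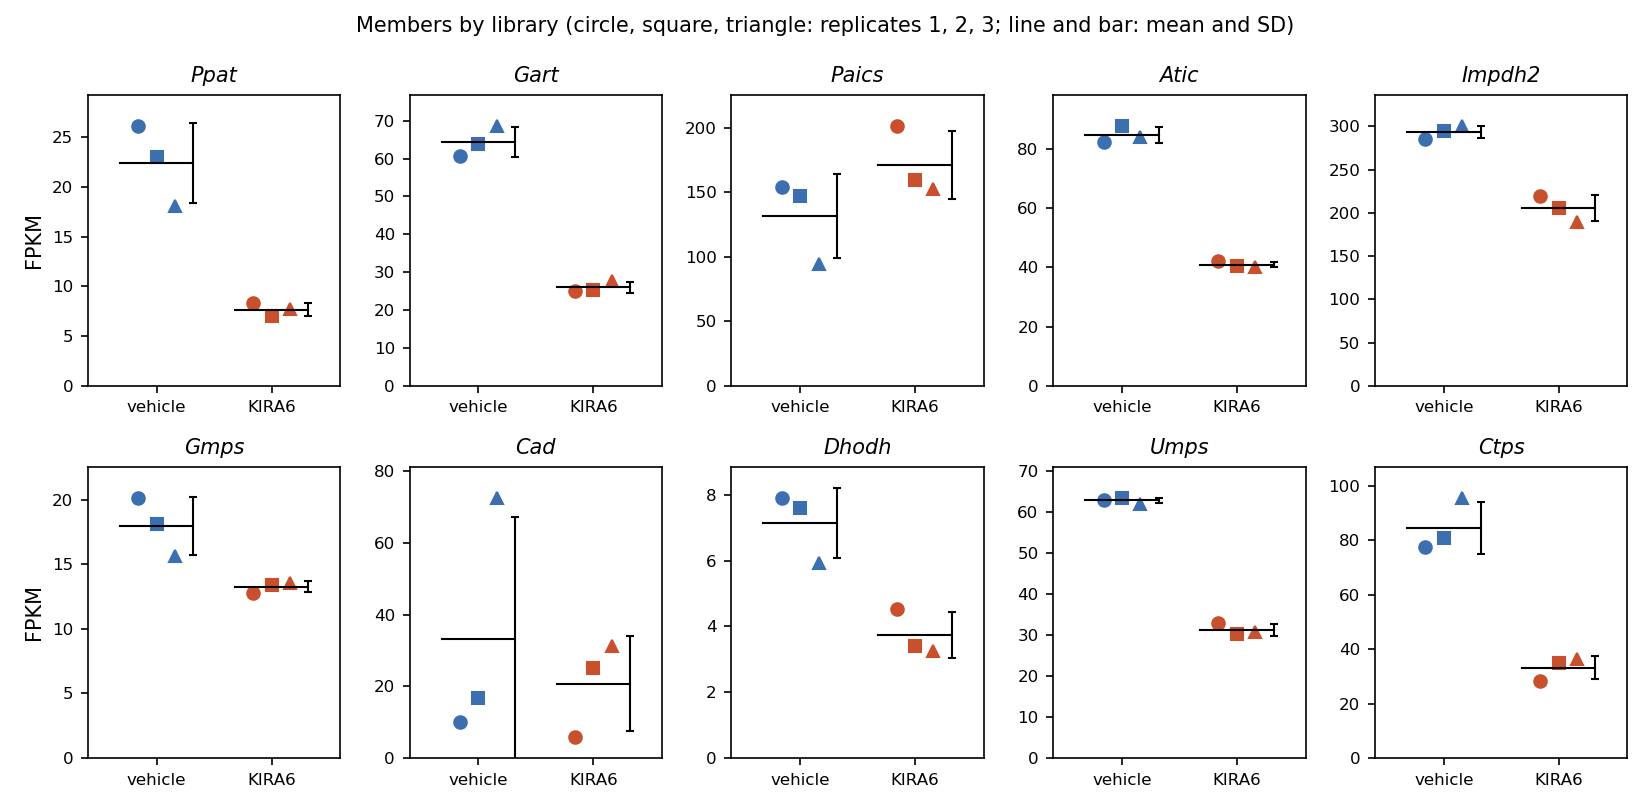
FPKM of each of the 10 enzymes in the 3 vehicle (blue) and 3 KIRA6 (red) libraries, with the mean as a line and the SD as a bar that is cut at 0 for Cad in vehicle; each panel has its own axis from 0. The groups are apart in 8 panels, while Paics and Cad overlap, and Cad runs from 5.72 to 72.5 FPKM.

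Sequence just before the genes' RefSeq starts is shown for the enzymes in which a searched motif was found, to show where in the windows those letters lie. The windows were the 250 bases before each start in RefSeq on GRCm38.p6, a different build from the GRCm39 of the deposited coordinates. Of the 10 enzymes, 9 had an entry, in 10 windows; Dhodh had none. The E-box CACGTG, which MYC binds together with MAX, was found in 3 of the 9 (Atic, Impdh2 and Paics), beside 6.02% of all 32851 windows. The ETS-type motif CCGGAAG was found in Ppat alone, beside 6.91% of windows, and the amino-acid response motif TGATGNAA in none of the 9, beside 3.45%. Both strands were searched, and no window of the enzymes held more than 1 match. Each window with a match overlaps an annotated exon: of the same gene for Atic and Impdh2, of Ppat for Paics, and of Paics for Ppat. Those windows may therefore be partly transcribed. The stretches of 30 bases that hold the matches are given 5′ to 3′ on the strand of the gene, with the match in capitals, and the Ppat match is the reverse complement of the motif.
Atic (chr1:71557126-71557155, + strand): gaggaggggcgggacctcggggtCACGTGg
Impdh2 (chr9:108560314-108560343, + strand): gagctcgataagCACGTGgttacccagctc
Paics (chr5:76951087-76951116, + strand): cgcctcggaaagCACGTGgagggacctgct
Ppat (chr5:76951579-76951608, - strand): tgacgcgaccccgCTTCCGGgcggcccctc
The first base of the match lay 7 bases before the start of Atic, 110 before that of Impdh2, 203 before that of Paics and 17 before that of Ppat. Enzymes with the E-box thus included both Atic and Impdh2, which fell, and Paics, which was not called. The E-box before Paics also lies inside Ppat, which fell, because these genes overlap head to head. The Ppat match likewise lies inside Paics. A match is a description of the letters and not a site of binding.

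Gart and Ctps, which had the largest falls after Ppat, held none of the 3 motifs in their windows. Windows of these genes are shown for comparison because no annotated exon lies in them. Ctps has 2 such windows, and the more upstream is shown. The absence of a match says only that these letters are not there.
Gart (chr16:91646973-91647222, - strand): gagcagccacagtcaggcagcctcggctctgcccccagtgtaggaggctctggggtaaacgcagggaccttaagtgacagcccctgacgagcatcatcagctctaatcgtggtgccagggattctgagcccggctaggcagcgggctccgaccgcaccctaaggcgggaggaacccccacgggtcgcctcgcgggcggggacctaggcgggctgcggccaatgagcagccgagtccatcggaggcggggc
Ctps (chr4:120570277-120570526, - strand): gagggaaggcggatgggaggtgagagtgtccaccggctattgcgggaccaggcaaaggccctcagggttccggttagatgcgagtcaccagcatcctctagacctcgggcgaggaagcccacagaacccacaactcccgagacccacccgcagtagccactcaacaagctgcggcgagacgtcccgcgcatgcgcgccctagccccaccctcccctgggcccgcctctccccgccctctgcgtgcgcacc

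The first committed step of purine synthesis, the transfer of an amino group to PRPP, is made by the amidotransferase encoded by Ppat (ENSMUSG00000029246, GRCm39 chr5:77061096-77099425, - strand). Its level was 26.1, 23.01 and 18.1 FPKM in vehicle and 8.29, 6.99 and 7.72 FPKM in KIRA6. Each KIRA6 library was below each vehicle library, and the fitted level in KIRA6 was 36.0% of that in vehicle. The log2 fold change of Ppat, on the scale of log2(FPKM + 0.5), was -1.47 ± 0.17 (SE; limma adjusted p = 0.00235). Only 140 of the 11778 genes tested had a lower value.

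Gart (ENSMUSG00000022962, chr16:91418074-91443840, - strand) encodes a trifunctional enzyme that carries out several of the steps that follow. Gart stood at 60.7, 63.8 and 68.5 FPKM in vehicle and at 25.0, 25.4 and 27.7 FPKM in KIRA6. The groups were far apart relative to their spread. Its log2 fold change was -1.29 ± 0.12 (limma adjusted p = 0.00136), which leaves 40.9% of the vehicle level. An antisense gene, Gm15964, shares 14.2% of the 50-base runs of the Gart transcript. At 0.04 to 0.53 FPKM its own level was far below that of Gart in all 6 libraries.

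Atic (ENSMUSG00000026192, chr1:71596309-71618790, + strand) encodes the bifunctional enzyme that adds the last formyl group and closes the ring to give IMP. Vehicle libraries held 82.6, 87.7 and 84.1 FPKM of Atic and KIRA6 libraries 42.1, 40.6 and 40.3 FPKM. Libraries of a group differed little, and the groups did not overlap. The log2 fold change was -1.04 ± 0.12 (limma adjusted p = 0.00202), or 48.6% of the vehicle level.

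Paics (ENSMUSG00000029247, chr5:77099154-77115356, + strand) encodes the bifunctional carboxylase and ligase between the steps of Gart and Atic. Its level was 153.8, 147.5 and 94.5 FPKM in vehicle and 201.3, 159.8 and 153.0 FPKM in KIRA6. The highest vehicle library exceeded the lowest KIRA6 library, so the groups overlapped, and Vehicle replicate 3 was the lowest of all. The log2 fold change was 0.40 ± 0.23 (limma adjusted p = 0.255), and Paics was not called. It was 0.17 without Vehicle replicate 3 (limma adjusted p = 0.445) and 0.05 without both that library and KIRA6 replicate 1 (limma adjusted p = 0.684).

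The divergent pair was also read as a ratio within each library. In the deposited coordinates Ppat and Paics lie on opposite strands and overlap by 272 bases at their starts, and RefSeq places the starts 276 bases apart on GRCm38.p6. The ratio of Paics to Ppat was 5.90, 6.41 and 5.22 in vehicle and 24.3, 22.9 and 19.8 in KIRA6. It was 5.84 ± 0.598 (SD, n = 3) in vehicle and 22.3 ± 2.28 in KIRA6, a 3.82-fold difference on the log scale. The ratio varied less among vehicle libraries than did Paics itself. The exact two-sided permutation test gave p = 0.1, the smallest p that 3 against 3 libraries allow. Paics and Ppat share sequence in their transcripts: 9.17% of the 50-base runs of Paics are also in Ppat. The libraries keep strand by the dUTP method, but the strand setting of the counting is not given in the sources used here.

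Impdh2 (ENSMUSG00000062867, chr9:108437485-108442783, + strand) encodes IMP dehydrogenase, the rate-limiting step from IMP towards GMP. Its level was 285.7, 294.9 and 300.3 FPKM in vehicle and 219.8, 206.2 and 189.96 FPKM in KIRA6. It was the most abundant of the 10 enzymes in both groups, and the groups did not overlap. Its log2 fold change of -0.52 ± 0.13 (limma adjusted p = 0.0299) was the smallest among the enzymes that fell. The level of Impdh2 is uncertain, since 73.9% of the 50-base runs of its transcript are also found in Impdh2-ps (chr8:100757190-100758734), a near-identical copy. Impdh2-ps was listed at 139.8, 142.1 and 150.4 FPKM in vehicle and 109.4, 112.2 and 100.3 FPKM in KIRA6, with a log2 fold change of -0.42 (limma adjusted p = 0.0504). How the reads of Impdh2 and Impdh2-ps were divided in the counting is not given in the sources used here.

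Gmps (ENSMUSG00000027823, chr3:63883527-63930000, + strand) encodes GMP synthetase, which completes GMP. It was at 20.1, 18.1 and 15.7 FPKM in vehicle and at 12.8, 13.4 and 13.6 FPKM in KIRA6. All KIRA6 libraries lay below all vehicle libraries. With a log2 fold change of -0.42 ± 0.14 (limma adjusted p = 0.0708), Gmps was not called. Without Vehicle replicate 3, the library nearest to the KIRA6 values, the log2 fold change was -0.51 (limma adjusted p = 0.0265) and Gmps was called. The call of Gmps was also made with median-ratio scaling of the libraries, at -0.64 (limma adjusted p = 0.0180).

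**Figure D2:**
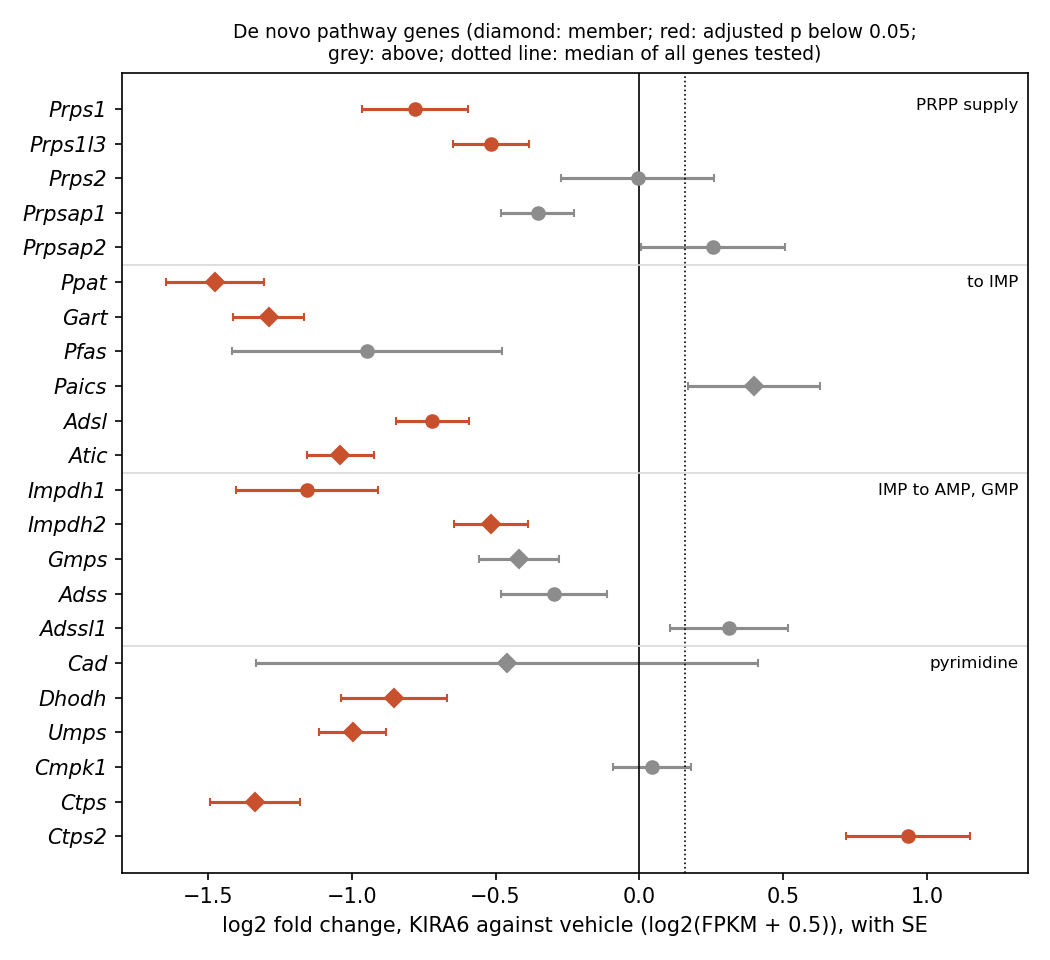
Log2 fold change of KIRA6 against vehicle, in log2(FPKM + 0.5), for the genes of the de novo and PRPP lists, with the limma SE as a bar and called genes (adjusted p below 0.05) in red. Ppat is the lowest at -1.47, Paics at 0.40 stands to the right of 0 without a call, and Cad has the longest bar, 0.87.

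The pyrimidine route begins with Cad (ENSMUSG00000013629, chr5:31212124-31235823, + strand), a large protein that joins the carbamoyl phosphate synthetase, aspartate transcarbamoylase and dihydroorotase activities. The level of Cad was 10.1, 16.6 and 72.5 FPKM in vehicle and 5.72, 25.1 and 31.3 FPKM in KIRA6. Vehicle replicate 3 was above every other library and KIRA6 replicate 1 below every other, and the groups overlapped. The log2 fold change of Cad was -0.46 ± 0.87 (limma adjusted p = 0.746). No direction can be given: it was 0.35 without Vehicle replicate 3 (limma adjusted p = 0.730), 0.27 without KIRA6 replicate 1 (limma adjusted p = 0.826), and -1.04 without Vehicle replicate 1 (limma adjusted p = 0.497). With Vehicle replicate 3 and KIRA6 replicate 1 both left out, Cad was higher by 1.08 and called (limma adjusted p = 0.00529), which rests on 2 libraries in each group. In that fit 4227 of all genes were called higher, against 1843 in the main fit.

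Cad varied within the groups more than nearly all other genes. Its within-group SD was 1.37 on the log2 scale, beside a median of 0.247 over all genes tested, and 94 of the 11778 had a larger one. The highest library exceeded the lowest 7.18-fold in vehicle and 5.46-fold in KIRA6. An estimated 998 to 11001 fragments stood behind each value of Cad. A single axis held 81.3% of the within-group variance of all genes tested, with Vehicle replicate 3 at one end of the vehicle group (score 48.9, the other two at -29.4 and -19.5) and KIRA6 replicate 1 at the opposite end of its group (score -38.8, the other two at 13.1 and 25.7). GC content moved with the gap of Vehicle replicate 3 to the other vehicle libraries. The median of this gap was 0.38 on the log2 scale over the 2331 genes of highest GC, 55.4% to 74.2%. Over the 2331 of lowest GC it was -0.29. The exons of Cad have a GC content of 57.4%. For KIRA6 replicate 1 the median gaps to the other KIRA6 libraries were -0.22 and -0.08 over the same sets of genes. Over the 2330 genes of 47.9% to 51.5% GC its median gap was 0.08, so it did not move steadily with GC. After a correction of each library for GC content and length, chosen after seeing the data, the log2 fold change of Cad was -0.72 (limma adjusted p = 0.437).

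**Figure D3:**
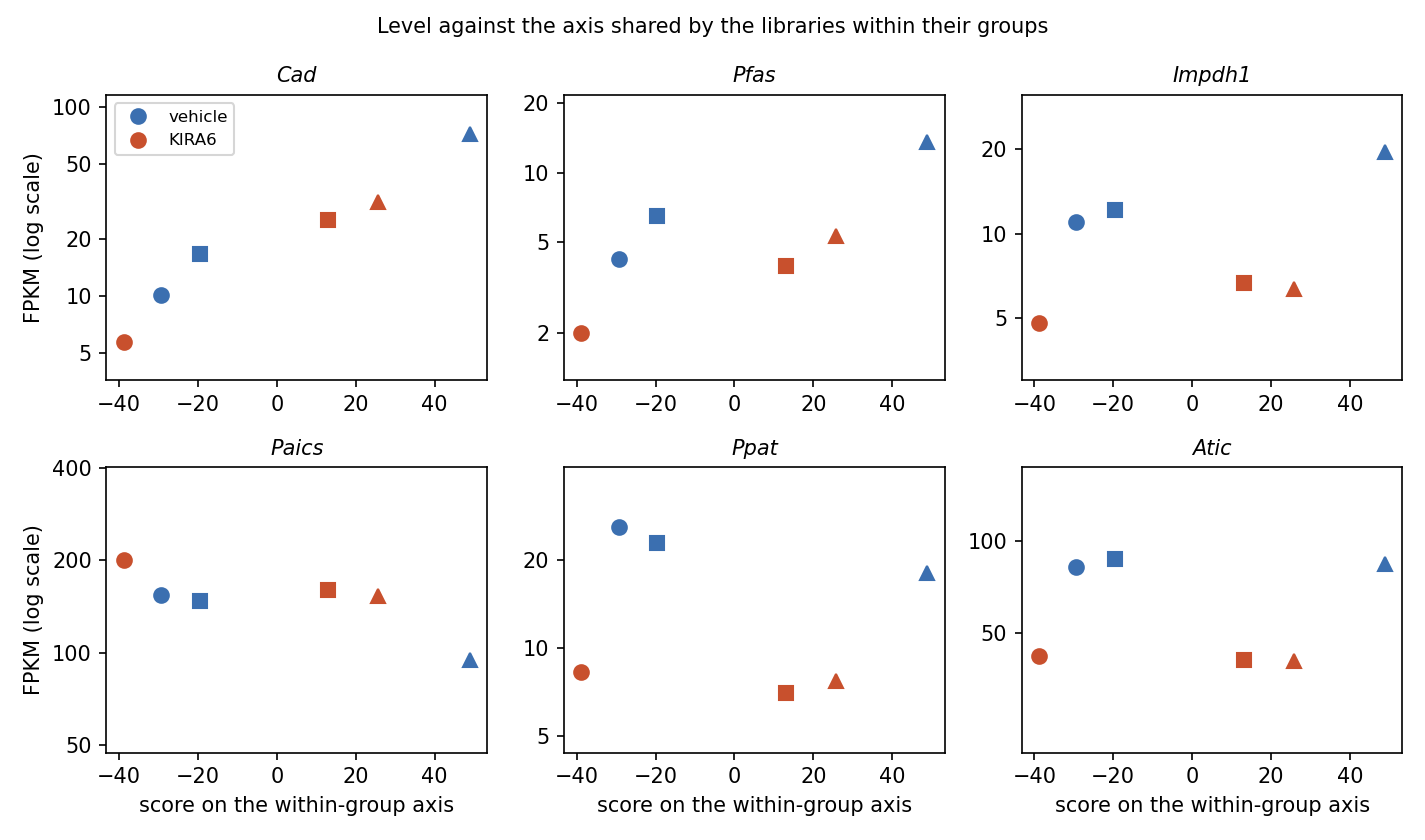
Score of each library on the axis that holds 81.3% of the within-group variance of all genes tested (x, no unit) against FPKM on a log axis (y) for Cad, Pfas, Impdh1, Paics, Ppat and Atic, vehicle in blue and KIRA6 in red, with a symbol for each replicate number. Cad rises along the axis in both groups, from KIRA6 replicate 1 at -38.8 to Vehicle replicate 3 at 48.9.

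The genes whose pattern over the 6 libraries was most like that of Cad were Hrob, Larp1, Samd4b, Itpr3 and Dab2ip. Likeness was Pearson's r of log2(FPKM + 0.5) over all 6 libraries, among tested genes whose mean reached 1 FPKM, and it ran from 0.997 to 0.998 in these 5. It is given as a description, since the libraries share the axis just described and the 5 genes were picked by this r. None of the 5 was called with all libraries. With Vehicle replicate 3 and KIRA6 replicate 1 left out, Larp1 (0.94, limma adjusted p = 0.00349), Samd4b (0.85, 0.00544), Itpr3 (0.80, 0.00981) and Dab2ip (0.45, 0.0445) were called higher, as Cad was. Over all genes, 4227 were called higher and 2383 lower in that fit. Since the 5 genes were picked for following Cad over the same libraries, their moving with Cad adds no support to its call. After the correction for GC content and length Dab2ip was called lower, at -0.55 (limma adjusted p = 0.0174). Larp1, for example, was at 11.7, 16.3 and 61.2 FPKM in vehicle and 7.54, 23.5 and 30.7 FPKM in KIRA6. No other enzyme of the route was among them.

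Dhodh (ENSMUSG00000031730, chr8:110317975-110335305, - strand) encodes the mitochondrial enzyme that oxidises dihydroorotate to orotate. It had the lowest level of the 10, with 7.90, 7.59 and 5.92 FPKM in vehicle and 4.54, 3.40 and 3.26 FPKM in KIRA6. The groups did not overlap, and an estimated 391 to 908 fragments stood behind each value. Its log2 fold change was -0.85 ± 0.18 (limma adjusted p = 0.0189), or 55.3% of the vehicle level.

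Umps (ENSMUSG00000022814, chr16:33775152-33787408, - strand) encodes the bifunctional UMP synthase, which makes UMP from orotate. The vehicle libraries were nearly equal, at 63.0, 63.4 and 62.1 FPKM, and the KIRA6 libraries were at 33.0, 30.1 and 30.6 FPKM. Every KIRA6 value of Umps lay far outside the spread of vehicle. The log2 fold change was -1.0 ± 0.12 (limma adjusted p = 0.00242), so that 50.1% of the vehicle level was left.

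Ctps (ENSMUSG00000028633, chr4:120397065-120427473, - strand) encodes CTP synthase, which aminates UTP. Its level was 77.4, 80.8 and 95.5 FPKM in vehicle and 28.4, 35.03 and 36.2 FPKM in KIRA6. The groups were apart by more than their spread. A log2 fold change of -1.34 ± 0.16 (limma adjusted p = 0.00243) left 39.6% of the vehicle level.

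Its paralog Ctps2, which encodes a second CTP synthase, rose. Ctps2 was at 9.79, 11.8 and 7.11 FPKM in vehicle and 21.7, 15.95 and 17.96 FPKM in KIRA6, with no overlap. Its log2 fold change was 0.93 ± 0.22 (limma adjusted p = 0.0236). The ratio of Ctps2 to Ctps was 0.116 ± 0.0372 (SD, n = 3) in vehicle and 0.571 ± 0.167 in KIRA6, a 4.997-fold difference on the log scale, and Ctps stayed the more abundant of the pair in each library. The call of Ctps2 was lost when Vehicle replicate 1 or any KIRA6 replicate was left out, with log2 fold changes of 0.82 to 1.03 and limma adjusted p-values of 0.0608 to 0.0764, and with median-ratio scaling, at 0.72 (limma adjusted p = 0.0561).

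In vehicle the order of the levels, which FPKM allows to be compared per length, ran Impdh2, Paics, Atic, Ctps, Gart, Umps, Cad, Ppat, Gmps and Dhodh. Neighbours whose vehicle libraries overlapped were Atic with Ctps, Gart with Umps, Cad with both Umps and Ppat, and Ppat with Gmps. After KIRA6 the order was the same except that Umps stood above Gart and Gmps above Ppat. In KIRA6 all 3 libraries of Gmps (12.8 to 13.6 FPKM) exceeded all 3 of Ppat (6.99 to 8.29 FPKM), whereas in vehicle the pair overlapped. Paics, at 171.3 FPKM, and Impdh2, at 205.3 FPKM, overlapped in KIRA6 but not in vehicle.

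Calls of the 7 enzymes were not equally firm. Ppat, Gart, Atic, Umps and Ctps were called lower under each of the 19 alternatives tried. The calls of Impdh2 and Dhodh were lost on omission of any 1 of 4 libraries (Vehicle replicates 1 and 2, KIRA6 replicates 2 and 3), which leaves 5 enzymes called. In those fits Impdh2 had log2 fold changes of -0.54 to -0.46 with limma adjusted p-values of 0.0804 to 0.125, and Dhodh -0.81 to -0.77 with 0.0695 to 0.0868. Over all genes 1843 were called higher and 940 lower, and this split depended on scaling: it was 1224 and 1556 with median-ratio scaling, 1132 and 1182 with quantile normalization, and 1678 and 1783 after correction for GC content and length. The median of all genes moved from 0.16 to -0.04 with median-ratio scaling, and the 7 enzymes were called lower under each of these scalings.

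The other genes of the same routes were taken from lists of pathway genes. The counts called in this and the later lists stand beside 7.98% called lower and 15.6% called higher over all genes tested. Of the 12 that are not among the 10 enzymes, 4 were called lower, 1 was called higher and 7 were not called, with a median log2 fold change of -0.33. On the way to IMP, Adsl, the lyase that acts both before IMP and on the way to AMP, fell with a log2 fold change of -0.72 ± 0.13 (limma adjusted p = 0.00957), from 26.1 ± 1.28 to 15.7 ± 1.36 FPKM (SD, n = 3). Pfas, which encodes the amidotransferase between Gart's steps, was at 4.2, 6.48 and 13.6 FPKM in vehicle and 2.0, 3.94 and 5.30 FPKM in KIRA6. The groups of Pfas overlapped, and its log2 fold change of -0.95 ± 0.47 was not called (limma adjusted p = 0.195). Its highest value was in Vehicle replicate 3 and its lowest in KIRA6 replicate 1, as for Cad.

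Past IMP, Impdh1, the less abundant IMP dehydrogenase, fell from 14.2 ± 4.61 to 5.95 ± 0.997 FPKM (SD, n = 3), with a log2 fold change of -1.16 ± 0.25 (limma adjusted p = 0.0178). The ratio of Impdh2 to Impdh1 was 15.4 to 26.0 in vehicle and 29.9 to 45.7 in KIRA6, with the uncertainty of Impdh2 given above. The adenylosuccinate synthases were not called: Adss had a log2 fold change of -0.30 (limma adjusted p = 0.294) and Adssl1 one of 0.31 (limma adjusted p = 0.317). Calls were lost for Adsl without Vehicle replicate 2, at -0.69 (limma adjusted p = 0.0591), and for Impdh1 without Vehicle replicate 2, KIRA6 replicate 2 or KIRA6 replicate 3, at -1.24 to -1.21 (limma adjusted p 0.0509 to 0.0584). Adss was called lower without Vehicle replicate 3, at -0.48 (limma adjusted p = 0.0321), and after correction for GC content and length, at -0.48 (0.0217).

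PRPP, the sugar phosphate used by both routes, is made by PRPP synthetases. Prps1 fell from 73.2 ± 12.1 to 42.3 ± 6.53 FPKM (SD, n = 3), a log2 fold change of -0.78 ± 0.18 (limma adjusted p = 0.0251). Prps2 was not called, at -0.01 ± 0.27 (limma adjusted p = 0.991), and its values of 24.7, 25.7 and 13.3 FPKM in vehicle enclosed the 22.9, 17.9 and 20.3 FPKM in KIRA6. The ratio of Prps2 to Prps1 was 0.284 ± 0.0528 in vehicle and 0.483 ± 0.0270 in KIRA6. Prps1l3, which shares 11.6% of its 50-base runs with Prps1 and is uncertain for that reason, was called lower at -0.52 (limma adjusted p = 0.0331). Prps1 in turn shares 10.1% of its runs with Prps1l3, so its level and the ratio carry the same uncertainty. The regulatory partners were not called, Prpsap1 at -0.35 (limma adjusted p = 0.0917) and Prpsap2 at 0.25 (limma adjusted p = 0.510). Prpsap2 shares 34% of its 50-base runs with other genes and is uncertain. Prpsap1 was called lower with median-ratio scaling, at -0.58 (limma adjusted p = 0.0254), with array weights, at -0.27 (0.0161), and after correction for GC content and length, at -0.51 (0.00849). Prps2 was called lower without Vehicle replicate 3 and KIRA6 replicate 1, at -0.39 (limma adjusted p = 0.0209), and with array weights, at -0.42 (0.0142). Over all genes 2383 were called lower without those libraries and 2810 with array weights, against 940 in the main fit. The call of Prps1 was lost on omission of any 1 of Vehicle replicates 1 and 2 and KIRA6 replicates 2 and 3, at -0.74 to -0.69 (limma adjusted p 0.0858 to 0.108), and that of Prps1l3 without any library other than Vehicle replicate 3, at -0.54 to -0.44 (limma adjusted p 0.0788 to 0.132). The last gene of the pyrimidine list, Cmpk1, a UMP and CMP kinase, was not called at 0.04 (limma adjusted p = 0.851).

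**Figure D4:**
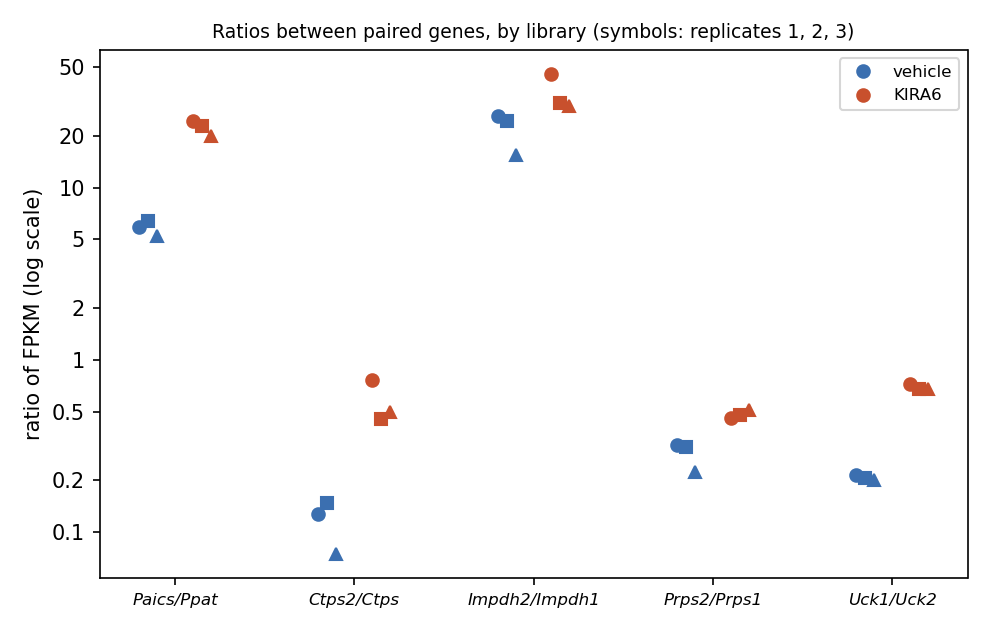
Ratio of FPKM within each library for 5 pairs of genes of the routes (y, log axis), vehicle in blue and KIRA6 in red. In each pair the 3 KIRA6 ratios lie above the 3 vehicle ratios, from 5.22 to 6.41 up to 19.8 to 24.3 for Paics over Ppat.

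In all, 5 within-library ratios were computed, and the exact two-sided permutation p was 0.1 for each and 0.1 after Benjamini-Hochberg adjustment over the 5. The pairs were chosen with the genes' values known, so the ratios are descriptions. The other pair belongs to salvage, which recycles bases and nucleosides. Uck2, the uridine and cytidine kinase, fell from 67.1, 67.7 and 56.1 FPKM to 22.6, 20.6 and 20.1 FPKM, a log2 fold change of -1.57 ± 0.14 (limma adjusted p = 0.00105). Its paralog Uck1 was at 13.2 ± 1.68 FPKM in vehicle and 14.7 ± 1.56 FPKM in KIRA6 (SD, n = 3) and was not called (limma adjusted p = 0.521). Uck1 shares 24.5% of its 50-base runs with other genes and is uncertain. The ratio of Uck1 to Uck2 went from 0.207 ± 0.00681 in vehicle to 0.693 ± 0.0296 in KIRA6.

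Around the de novo route, 12 salvage genes were tested, of which 4 were called lower and 1 higher, with a median log2 fold change of -0.10. Upp1, uridine phosphorylase, fell most, from 14.7, 14.0 and 8.92 FPKM to 2.53, 2.13 and 1.70 FPKM (log2 fold change -2.30 ± 0.23, limma adjusted p = 0.00159). Thymidine kinase Tk1 fell by 0.63 (limma adjusted p = 0.0279) and the adenine phosphoribosyltransferase Aprt by 0.60 (limma adjusted p = 0.0491) on the log2 scale. Dguok, the mitochondrial deoxyguanosine kinase, rose by 1.07 (limma adjusted p = 0.00324). Hprt, the main purine salvage enzyme, was not called at -0.25 ± 0.21 (limma adjusted p = 0.436). It was called lower after correction for GC content and length, at -0.47 (limma adjusted p = 0.0156), with array weights, at -0.43 (0.00507), and without Vehicle replicate 3 and KIRA6 replicate 1, at -0.54 (0.00443). Over all genes 1783 were called lower after that correction, 2810 with array weights and 2383 without those libraries, against 940 in the main fit. The calls of Tk1 and Aprt were lost on omission of any 1 of Vehicle replicates 1 and 2 and KIRA6 replicates 2 and 3, with limma adjusted p-values of 0.0908 to 0.119 for Tk1 and 0.139 to 0.179 for Aprt.

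Downstream, 3 of 11 genes of deoxynucleotide supply were called lower, with a median of -0.29. Rrm2, the small subunit of ribonucleotide reductase, fell from 140.9 ± 13.1 to 79.8 ± 7.65 FPKM (SD, n = 3; log2 fold change -0.82 ± 0.14, limma adjusted p = 0.00907). Nme1, a nucleoside diphosphate kinase with 11.9% of its runs in the readthrough gene Gm20390, and the dCTP pyrophosphatase Dctpp1 were called lower at -0.82 and -0.74. Without KIRA6 replicate 2 the limma adjusted p of Rrm2 was 0.0534. On omission of any 1 of Vehicle replicates 1 and 2 and KIRA6 replicates 2 and 3, those of Nme1 were 0.0957 to 0.119 and those of Dctpp1 0.0608 to 0.113.

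Of 17 listed genes of nucleotide breakdown, 12 were tested, 1 was called higher and 1 lower, and the median was 0.08. Xdh, xanthine dehydrogenase, which makes uric acid, rose from 1.59, 1.68 and 2.65 FPKM to 8.17, 9.20 and 11.2 FPKM (log2 fold change 2.03 ± 0.21, limma adjusted p = 0.00174). Nt5e, the ecto-nucleotidase CD73, was called lower at -0.50 (limma adjusted p = 0.0360), a call lost on omission of any 1 of Vehicle replicates 1 and 2 and KIRA6 replicates 1 and 2 (limma adjusted p 0.0917 to 0.147). Among nucleoside transporters 3 of 6 were tested, and Slc29a1 and Slc29a2, the equilibrative carriers of the plasma membrane, fell by 0.95 (limma adjusted p = 0.00732) and 1.64 (limma adjusted p = 0.00796) on the log2 scale. The remaining one, Slc29a3, had a positive log2 fold change of 0.87 and was not called (limma adjusted p = 0.0970).

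The carbon and nitrogen of the rings come from formyl-folate, glycine, aspartate and glutamine. In this list of 13 genes, 5 were called lower and 1 higher, and 12 had a negative log2 fold change, with a median of -0.48. Of all 11778 genes tested, 4447 had a negative log2 fold change. Shmt1, the cytosolic serine hydroxymethyltransferase, fell from 21.2, 21.5 and 17.4 FPKM to 5.54, 4.82 and 5.06 FPKM (log2 fold change -1.86 ± 0.14, limma adjusted p = 0.000745). The folate enzymes Mthfd2 and Mthfd1, which supply formyl groups, fell by 1.18 (limma adjusted p = 0.00243) and 1.00 (limma adjusted p = 0.00885) on the log2 scale. Got1, the cytosolic aspartate aminotransferase, and Mthfd1l, of mitochondrial folate metabolism, were called lower at -0.62 and -0.58, and glutamine synthetase Glul was called higher at 0.51. Those last 3 calls were less firm: that of Got1 was lost without Vehicle replicate 2 or KIRA6 replicate 2 (limma adjusted p 0.0706 to 0.0748), that of Mthfd1l on omission of any 1 of Vehicle replicates 1 and 2 and KIRA6 replicates 1 and 2 (0.0590 to 0.106), and that of Glul on omission of any 1 of Vehicle replicates 1 and 2 and KIRA6 replicates 2 and 3 (0.0896 to 0.122). Glul was not called with median-ratio scaling either, at 0.29 (limma adjusted p = 0.138), nor when rescaled to TPM (0.0722) or with no filter on low values (0.0528). Glul shares 15.02% of its 50-base runs with other genes and is uncertain.

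**Figure D5:**
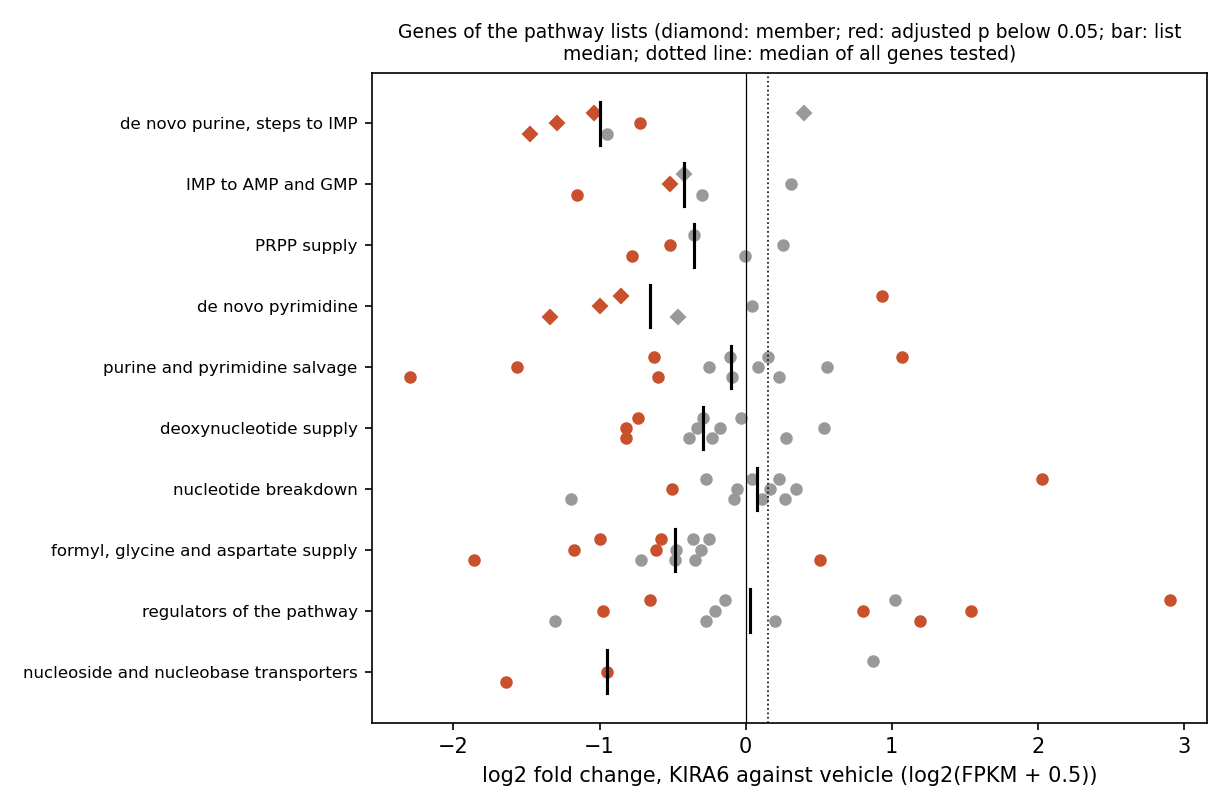
Log2 fold change of KIRA6 against vehicle (x, log2(FPKM + 0.5)) for each tested gene of the pathway lists (y), with the 10 enzymes as diamonds, called genes in red, list medians as bars and the median of all genes tested, 0.16, as a dotted line. The median is lowest for the steps to IMP, at -0.99, and for the 3 tested transporters, at -0.95, and is 0.03 for the regulators.

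Regulators of the route were mixed: 4 of 12 tested were called higher, 2 lower and 6 not, with a median of 0.03. Among the partners and antagonists of MYC on the E-box, Mxd4 rose from 0.63, 0.84 and 0.55 FPKM to 9.40, 7.63 and 7.77 FPKM (log2 fold change 2.90 ± 0.17, limma adjusted p = 0.000433). Mxd1 rose by 1.54 (limma adjusted p = 0.00137) and Mxi1 by 0.80 (limma adjusted p = 0.00752) on the log2 scale. Mnt, a further antagonist, was not called at 1.02 ± 0.70 (limma adjusted p = 0.337), and its groups overlapped. Max, the common partner, fell by 0.65 (limma adjusted p = 0.0112) and its relative Mlx by 0.98 (limma adjusted p = 0.00708). The call of Max was lost without Vehicle replicate 2 or KIRA6 replicate 2 (limma adjusted p 0.0602 to 0.0665), and Mlx shares 17.5% of its 50-base runs with its neighbour Psmc3ip.

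Myc itself was at 30.5, 34.2 and 97.6 FPKM in vehicle and 12.8, 23.01 and 21.8 FPKM in KIRA6. The groups did not overlap, with Vehicle replicate 3 far above the others as for Cad, and the log2 fold change of Myc, -1.31 ± 0.47, was not called (limma adjusted p = 0.0909). Without Vehicle replicate 3 and KIRA6 replicate 1 it was -0.52 and was called (limma adjusted p = 0.00535). Mapk3, the kinase ERK1, which phosphorylates CAD, rose from 38.1 ± 2.67 to 87.7 ± 7.52 FPKM (SD, n = 3; log2 fold change 1.19 ± 0.13, limma adjusted p = 0.00202). Atf4, which drives amino-acid and folate genes under stress, was not called at -0.21 ± 0.25 (limma adjusted p = 0.596). It was called lower without Vehicle replicate 3 and KIRA6 replicate 1, at -0.60 (limma adjusted p = 0.0032), and with array weights, at -0.45 (0.00743). Those fits called many more genes than the 1843 higher and 940 lower of the main fit. Without those libraries, as for the call of Myc above, 4227 genes were called higher and 2383 lower. With array weights 4743 were called higher and 2810 lower.

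Depth and identity of the libraries were checked over all genes. The estimated total was 16462100 to 18550050 fragments in vehicle and 18181950 to 21320450 in KIRA6. All 5 epithelial markers (Krt8, Krt18, Krt19, Epcam and Cdh1) were present, with a summed level of 1261 to 1381 FPKM in vehicle and 1434 to 1533 FPKM in KIRA6. Of 5 fibroblast markers only Pdgfra reached 0.5 FPKM (summed 0.44 to 0.75 and 1.85 to 3.74 FPKM, Lum at 0), of 5 leukocyte markers only Cd68 (1.74 to 2.67 and 3.07 to 3.88 FPKM, Cd3e at 0), and of 4 endothelial markers none (at most 0.06 FPKM summed). Mitochondrial genes held 1.75% to 2.03% of the signal in vehicle and 2.66% to 3.25% in KIRA6, and their part in the falls described was not tested.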

How the data were processed

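Polyadenylated RNA of 4T1 cells was sequenced in 6 libraries, 3 per group, with strand kept by dUTP, per the labels' protocols. Per the submitters' processing notes the tools were cutadapt 1.9.1, HISAT2 2.2.1, HTSeq 0.6.1 and DESeq2 1.34.0 on GRCm39. Settings of these tools are not given. FPKM per gene and library, the deposited unit, divides fragments by exonic length and library total.

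Groups were taken from the treatment label. The 11778 genes whose mean over all libraries reached 0.5 FPKM were tested two-sided on log2(FPKM + 0.5) by limma 3.58.1 (R 4.3.3). The model held the group alone, and empirical Bayes used the robust option and a trend on intensity. P-values were adjusted over all genes tested by Benjamini-Hochberg, and an adjusted p below 0.05 was called. The constant of 0.5 understates the change of low genes. The depth was estimated from the steps between low FPKM values, where 97.1% to 99.9% of the values checked were whole to within 0.1 fragment. Fragment numbers bear on counting error only, while SD and SE come from the spread between libraries.

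The 10 members and all lists were chosen with earlier results of these data known. Besides the members, the other genes of the de novo and PRPP lists were named whatever their values, as were Myc, Atf4, Hprt and Rrm2, with up to 4 called genes of smallest p from each other list and the 5 genes most like Cad. Aprt, Mthfd1l, Glul, Mxi1, Max, Mnt, Uck1, Slc29a3 and the neighbouring or near-identical genes were named after their values were seen. Shared sequence was measured as 50-base runs of a gene's reference transcripts found in transcripts of other genes. GC content was matched by gene identifier for 98.9% of tested genes. Promoter windows came from RefSeq on GRCm38.p6.

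Alternatives changed the pseudocount, filter, scaling, empirical Bayes settings, library weights and model, added a replicate block, and left out libraries. A GC and length correction was chosen after seeing the data. The joint omission of Vehicle replicate 3 and KIRA6 replicate 1 was set with earlier results of these data known. It takes out the library farthest from the rest of each group on the within-group axis, which narrows the spread. The steps were tested on simulated data: for KIRA6 against vehicle over 11778 genes, 50 genes were changed at each fold size, and 4% were recovered at 1.5-fold, 36% at 2-fold, 82% at 4-fold and 96% at 8-fold. False calls made up 5 of 114. In the real libraries 2783 genes were called, and Vehicle replicate 3 and KIRA6 replicate 1 each stood apart from the rest of their group. Recovery and false calls under such differences, shared by many genes of a library, were not tested. The rates therefore describe the simulated data only and give no error rate for the calls reported here.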

Additional observations from a re-analysis of the deposited data

How the results depend on the processing

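Ppat, Gart, Atic, Umps and Ctps kept their direction and call under all 19 alternatives, and Paics was called in none (0.05 to 0.52). Gmps was called in 5, Impdh2 and Dhodh lost their calls in 4 each, and 5 to 8 of the 10 enzymes were called lower. Of the enzymes, 0 were called higher on leaving out any single library and 1, Cad, without Vehicle replicate 3 and KIRA6 replicate 1. Over all genes 1843 were called higher and 940 lower, against 1224 and 1556 with median-ratio scaling, 1132 and 1182 with quantile normalization, 4743 and 2810 with array weights, 4227 and 2383 without Vehicle replicate 3 and KIRA6 replicate 1, 1783 lower after correction for GC content and length, and 817 to 2064 higher and 394 to 1328 lower on leaving out 1 library in turn. With the replicate number as a block the numbers were 2883 and 1540, and Pfas and Myc were called lower. With no filter on low values Prps1l3, Tk1, Nme1, Dctpp1, Nt5e, Aprt and Glul were not called, and Aprt also not without the intensity trend. Same-numbered libraries correlated at 0.76, -0.47 and 0.74 in their deviations. With 3 libraries per group and a single axis holding 81.3% of the within-group variance, these values cannot decide whether the numbers pair the samples. Values that changed sign were, with array weights, Cad 0.57, Prpsap2 -0.066, Hrob 0.17, Larp1 0.51, Samd4b 0.50, Itpr3 0.40 and Dab2ip 0.19. Without Vehicle replicate 3 and KIRA6 replicate 1 they were Cad 1.08, Prpsap2 -0.12, Hrob 0.31, Larp1 0.94, Samd4b 0.85, Itpr3 0.80 and Dab2ip 0.45. In that fit Prps2 was -0.39 and kept the sign of its main value, -0.0057. Cmpk1 was -0.18 with median-ratio scaling and -0.23 after the GC and length correction, and with quantile normalization Adssl1 was -0.0014 and Prps2 0.020. Leaving out 1 library gave Cad -1.04 to 0.35, Prps2 -0.30 to 0.16, Prpsap2 -0.02 to 0.39, Cmpk1 -0.026 to 0.11, Hrob -0.28 to 0.11, Larp1 -0.82 to 0.35, Samd4b -0.77 to 0.33, Itpr3 -0.66 to 0.29 and Dab2ip -0.48 to 0.11. The cause of these changes was not tested. Among the 10 enzymes Dhodh had the fewest fragments, an estimated 391 to 908 a library.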
